A study of Mus musculus with 15 samples.

Results

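The genes described here encode the enzymes, transporters and kinases that carry glucose through glycolysis, to lactate, and through the pentose phosphate pathway. Of 36 such genes, 32 had at least 1 probe set that the array annotation assigns to that gene alone, out of 18193 genes with such a probe set. Where a gene had several such probe sets, the one with the highest mean on the 15 arrays was read. Gapdh was found on 3 probe sets shared with other genes only, and no probe set was matched to Gpi1, Eno1 or G6pdx, so these 4 genes were not analysed here.

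Glycolysis splits glucose into pyruvate and yields ATP and NADH without oxygen. Glucose enters through facilitative transporters, is trapped by hexokinases, committed by phosphofructokinase and released as pyruvate by pyruvate kinase, after which lactate dehydrogenase and the monocarboxylate transporters handle lactate and the pyruvate dehydrogenase kinases limit the oxidation of pyruvate in mitochondria. The pentose phosphate pathway branches off at glucose 6-phosphate; its oxidative arm makes NADPH, which the phagocyte oxidase and lipid synthesis use, and its non-oxidative arm makes ribose for nucleotides. Proliferating progenitors and activated myeloid cells are known for high flux through both pathways, and several genes have isozymes with different control, such as Hk1, Hk2 and Hk3.

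RNA came from wild-type C57Bl/6 mice at steady state and was labelled for 3′ expression arrays. Bone marrow progenitors were sorted as IL7R- and MHCII- cells in 4 groups of 2 arrays. Common myeloid progenitors (CMP) were lineage-negative, CD16/32- and CD11c- with high CD117 and were CD135+. Granulocyte-macrophage progenitors (GMP) were CD117 high, CD16/32+, CD135- and CD11c-. Common dendritic cell progenitors (CDP) differed from CMP in the gate by intermediate CD117. Precursors of classical dendritic cells (pre-cDC) were lineage-negative, CD16/32-, CD117 low, CD135+ and CD11c+. Another pre-cDC array, 1 in number, is titled Spl, although its cell type label names bone marrow. Cultures of whole bone marrow ran 7 days in GM-CSF or in M-CSF, each at 20 ng/ml. Adherent cells of both and non-adherent CD11c+ cells of the first were taken, with 1 array each. Monocytes were enriched from bone marrow by removing cells with other lineage markers, to above 90% purity for CD11b and Ly6C, and held for 0, 24 or 48 h with GM-CSF at 20 ng/ml (1 array each). GM-CSF and M-CSF are myeloid growth factors.

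The median intensity of the progenitor arrays was 15.95 to 17.44. Culture arrays had medians of 24.1 to 25.7, monocyte arrays 77.7 to 80.5 and the Spl array 74.2, so differences were formed only within progenitors, cultures or monocytes. For the 32 genes the largest difference between replicate arrays was 0.573 on the log2 scale, and 0 of them differed 2-fold. Whether replicate arrays came from separate mice is not in the labels, and the p-values cover only the spread between arrays, which may be technical. In such bulk samples, fewer cells of a type and less RNA per cell cannot be told apart. The defining markers followed the labels. In GMP against CMP 5 of 5 GMP markers were higher, and in CDP against CMP 4 of 4 dendritic cell precursor markers. In pre-cDC against CDP 4 of 4 classical dendritic cell markers were higher. Although all progenitor groups were sorted as MHCII- cells, 5 of 5 MHC class II markers were also higher in pre-cDC than in CDP. Their summed intensity was 15422 to 17195 in pre-cDC and 2024 to 2724 in CDP. Why this RNA was high despite the gate was not tested. Kit, Flt3, Fcgr3 and Itgax encode gated proteins.

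Of the 32 genes, 26 lay above the array median on all 15 arrays. Below it on at least 1 array were the liver-type phosphofructokinase Pfkl, the aldolase Aldoc, the gluconeogenic phosphatase Fbp1, the enolase Eno2, the lactate exporter Slc16a3 and the kinase Pdk2. The array median is over all probe sets, and each gene was read from its probe set with the highest mean, which favours a place above the median. The share of all genes above it was not counted, so the 26 cannot be set against that share. Differences are given as log2(intensity + 32), on which 1 is 2-fold, and a gene was called at an adjusted p under 0.05 in the fit to all 18193 genes. In at least 1 of the 6 comparisons among the progenitor groups 29 genes were called, and Slc2a1, Eno2 and Pdk2 were called in none. The same share over all genes is not given here, so the 29 cannot be set against it. In pre-cDC against GMP alone, 23.1% of all genes were lower and 21% higher. The 6 comparisons share their 4 groups and are not independent of each other.

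Across the 4 progenitor groups GMP most often had the highest mean of these genes, and pre-cDC the lowest. GMP had the highest mean for 18 genes (56.25%, against 26.9% of all genes), and pre-cDC the lowest for 19 (59.4%, against 36.4%). Both held for 16 genes (50%, against 15.8% of all genes). The highest mean was in pre-cDC for 10 genes, a share near that of all genes (31.25% against 33.4%): the transporters Slc2a1, Slc2a3 and Slc16a3, the hexokinase Hk2, the platelet-type phosphofructokinase Pfkp, Aldoc, the bifunctional enzyme Pfkfb4, Eno3, Pdk2 and the transaldolase Taldo1. For Slc2a1 and Pdk2 the differences between groups did not pass the test. The order GMP, CMP, CDP, pre-cDC from high to low was found for 13 of 32 genes (40.6%) and for 11.3% of all genes, a pattern picked out after the values were seen. Only for Slc2a3, Hk3, Pfkp and Aldoa was every step between neighbouring groups in the gene's own order called.

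**Figure D1:**
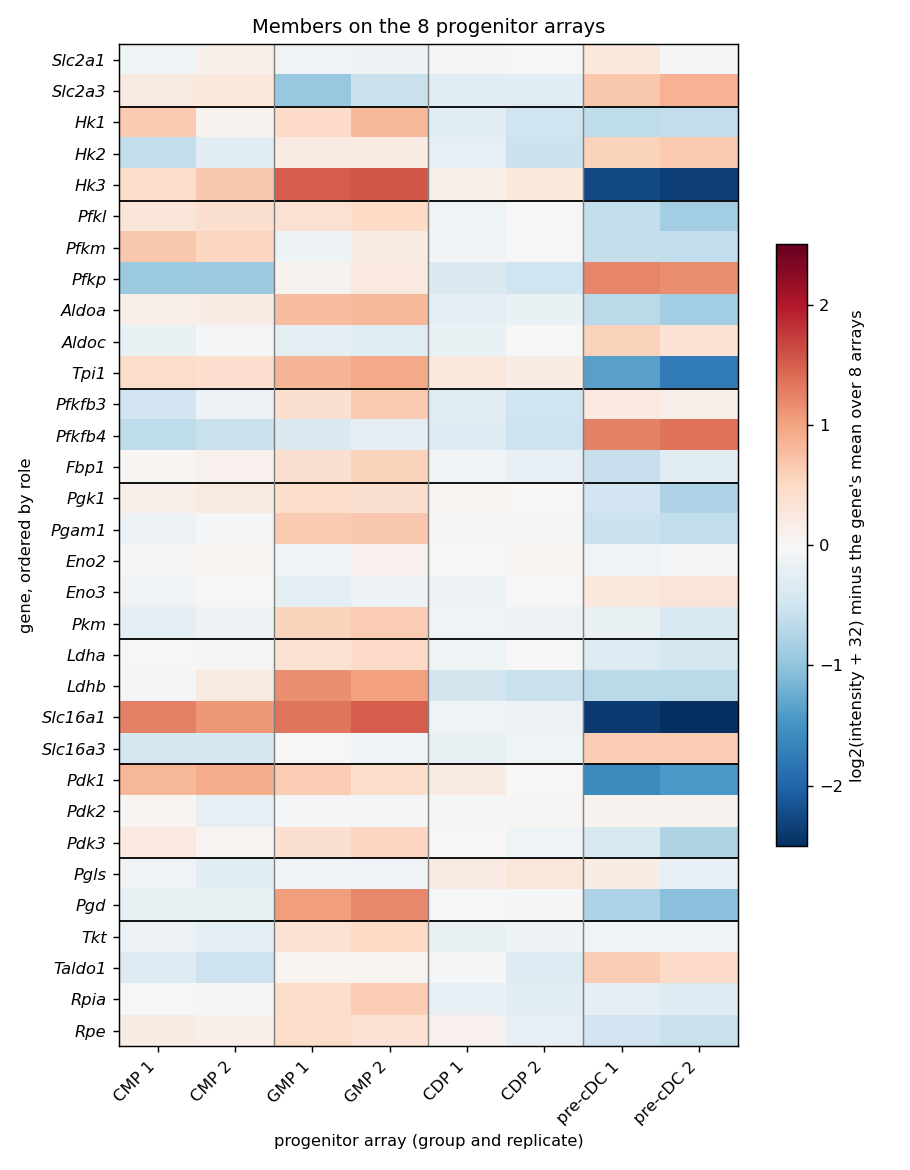
Level of each of the 32 genes on the 8 progenitor arrays, as log2(intensity + 32) minus the gene's mean over those arrays (red higher, blue lower), with genes in rows ordered by role and arrays in columns by group. The mean is highest in GMP for 18 rows and lowest in pre-cDC for 19, with Hk3 and Slc16a1 the widest, while Pfkp, Pfkfb4, Hk2 and Slc2a3 run the other way under pre-cDC.

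From CMP to GMP 16 genes rose, in 7 of 9 roles; no glucose transporter and no pyruvate dehydrogenase kinase rose. These were 16 of 32, against 7% of all genes, and 2 fell, against 9.76%; the median difference was 0.35, against -0.0075 over all genes. The risers were Hk2 and Hk3, Pfkp, Aldoa and Tpi1, Pfkfb3 and Fbp1, Pgam1 and Pkm, Ldha, Ldhb and Slc16a3, Pgd of the oxidative pentose phosphate arm, and Tkt, Taldo1 and Rpia of the non-oxidative arm. Slc2a3 and the muscle-type phosphofructokinase Pfkm fell. With 1 array left out, Tpi1 (adjusted p = 0.0541 to 0.128) and Fbp1 (adjusted p = 0.0508 to 0.23) lost the call whichever of the 4 arrays it was. Hk2 lost it without CMP replicate 1 (adjusted p = 0.0622), Taldo1 without CMP replicate 2 (adjusted p = 0.0761), and Pfkm (adjusted p = 0.0686) and Slc16a3 (adjusted p = 0.0815) without GMP replicate 1.

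From CMP to CDP fewer genes moved, and most of those fell. Of the 32 genes 9 fell, against 6.75% of all genes, and 3 rose, against 7.68%, with a median of -0.078. The genes that fell were Slc2a3, Hk1, Hk3, Pfkl, Pfkm, Aldoa, Ldhb, the lactate importer Slc16a1 and Pdk1, and those that rose were Pfkp, Slc16a3 and the lactonase Pgls. The total of 12 was 5 without CMP replicate 1 or CDP replicate 1, 6 without CMP replicate 2 and 7 without CDP replicate 2. Slc16a1, Pdk1, Pfkm and Ldhb kept the call in each case. Slc2a3 (adjusted p = 0.0729 to 0.104), Pfkl (adjusted p = 0.0626 to 0.16), Slc16a3 (adjusted p = 0.0577 to 0.172) and Pgls (adjusted p = 0.0553 to 0.193) lost it in each case. Hk3 (adjusted p = 0.0679 to 0.274) and Aldoa (adjusted p = 0.0642 to 0.0942) lost it in 3 cases, keeping it without CMP replicate 1 and without CDP replicate 2 respectively. Hk1 (adjusted p = 0.0825 to 0.107) lost it without CMP replicate 1 or CDP replicate 2, and Pfkp (adjusted p = 0.0525 to 0.0664) without CMP replicate 1 or CDP replicate 1. As a mean over the gene's probe sets, Slc2a3 (-0.20, adjusted p = 0.168), Hk3 (-0.24, adjusted p = 0.124), Pfkl (-0.14, adjusted p = 0.217) and Pfkp (0.24, adjusted p = 0.0632) also missed the threshold.

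Most of the genes were lower in CDP than in GMP. Of the 32 genes 21 were lower, against 12.1% of all genes, and 1, Slc2a3, was higher, against 15.9%; the median was -0.52. All 3 hexokinases, 4 of 6 genes of upper glycolysis, 3 of 5 of lower glycolysis, 3 of 4 lactate genes and 3 of 4 of the non-oxidative pentose phosphate arm were lower. With 1 array left out 7 of these calls were lost at least once: Slc2a3 in 3 of 4 cases, all but the one without GMP replicate 2 (adjusted p = 0.0527 to 0.186); Pdk1 and Rpe without GMP replicate 1 or CDP replicate 2 (adjusted p = 0.101 to 0.119 and adjusted p = 0.0918 to 0.12); Pdk3 without GMP replicate 2 or CDP replicate 2 (adjusted p = 0.0553 to 0.0781); Hk2 without CDP replicate 2 (adjusted p = 0.0748); Pfkl without GMP replicate 2 (adjusted p = 0.0622); and Pgk1 without GMP replicate 1 (adjusted p = 0.063). As a mean over probe sets, Slc2a3 (0.25, adjusted p = 0.0543), Pfkl (-0.12, adjusted p = 0.233), Pfkp (-0.21, adjusted p = 0.0673) and Pdk1 (-0.24, adjusted p = 0.0713) missed the threshold.

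From CDP to pre-cDC the pathway split, with 13 genes falling, against 18.8% of all genes, and 9 rising, against 14.4%. The median was -0.20. Slc2a3, Hk2, Pfkp, Aldoc, Pfkfb3, Pfkfb4, Eno3, Slc16a3 and Taldo1 rose. Hk3, Pfkl, Pfkm, Aldoa, Tpi1, Pgk1, Pgam1, Ldha, Slc16a1, Pdk1, Pdk3, Pgd and the epimerase Rpe fell, so within the hexokinases and within the phosphofructokinases the isozymes moved in opposite directions. Against GMP, pre-cDC had 19 genes lower (23.1% of all genes) and 8 higher (21%), with a median of -0.83. Against CMP it had 17 lower (23%) and 9 higher (19.1%), with a median of -0.33. With 1 array left out, calls lost against CDP were Eno3 without CDP replicate 1 or pre-cDC replicate 2 (adjusted p = 0.0611 to 0.0625), Pdk3 without pre-cDC replicate 2 (adjusted p = 0.0913), Pfkfb3 without CDP replicate 2 (adjusted p = 0.0534) and Rpe without CDP replicate 1 (adjusted p = 0.0766). Against GMP the call of Hk2 was lost in all 4 cases (adjusted p = 0.0521 to 0.11). Against CMP, Rpia lost it in all cases but the one without pre-cDC replicate 1 (adjusted p = 0.077 to 0.16), Eno3 without CMP replicate 1 or pre-cDC replicate 2 (adjusted p = 0.0722 to 0.0925), Pfkfb3 without CMP replicate 1 or pre-cDC replicate 1 (adjusted p = 0.0651 to 0.114), Fbp1 without pre-cDC replicate 1 (adjusted p = 0.0571) and Slc2a3 without pre-cDC replicate 2 (adjusted p = 0.057).

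**Figure D2:**
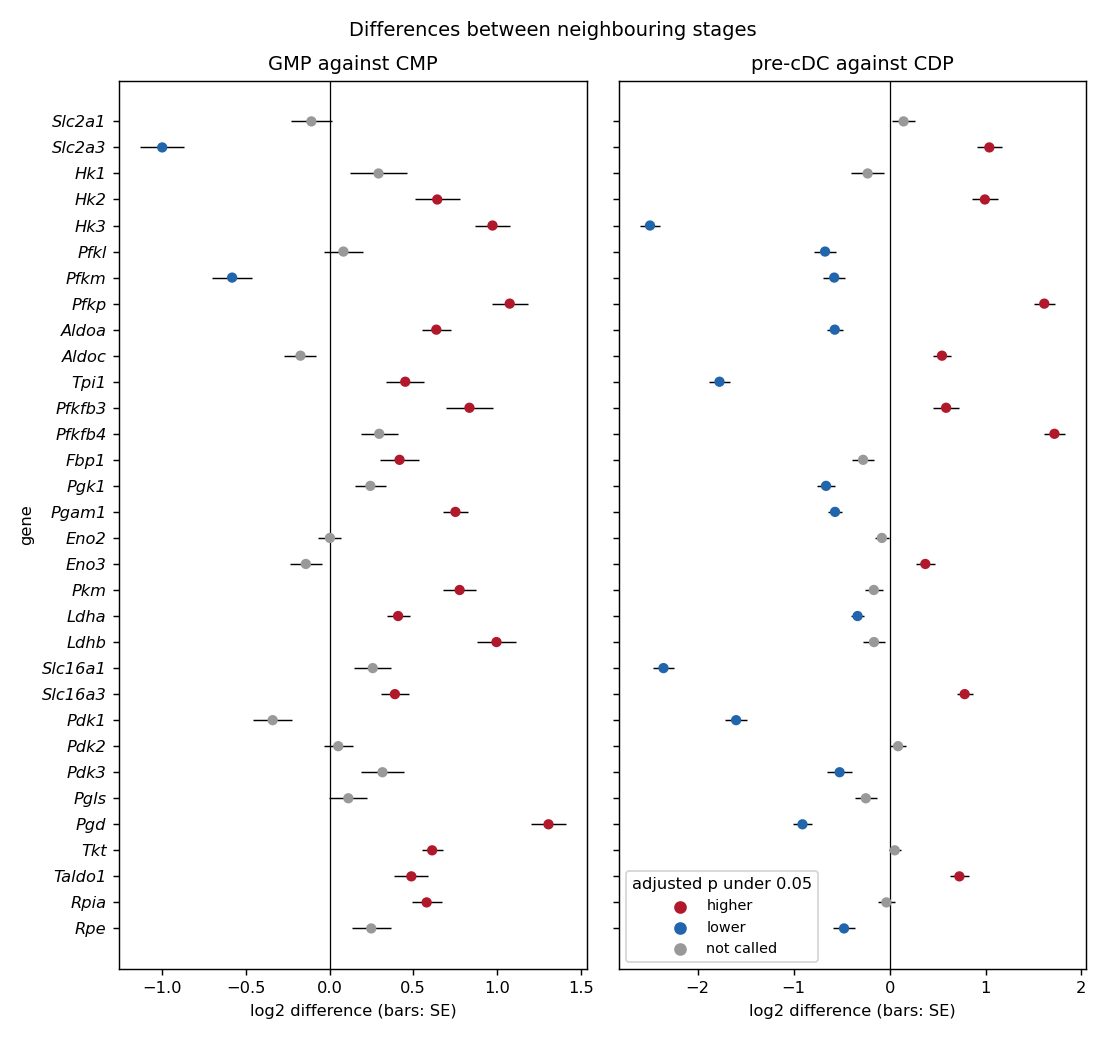
Difference of each gene on the log2(intensity + 32) scale, with its standard error as a bar, for GMP against CMP on the left and pre-cDC against CDP on the right (2 arrays a group); red and blue mark adjusted p under 0.05. On the left 16 genes are higher and 2 lower; on the right 9 are higher and 13 lower, and Hk3 and Slc16a1 lie farthest to the left.

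Of the 2 glucose transporters, Slc2a3 changed between progenitor groups and Slc2a1 was not called. Slc2a3 read 372 and 386 on the CMP arrays, 148 and 204 on the GMP arrays, 252 and 258 on the CDP arrays and 522 and 597 on the pre-cDC arrays. Slc2a3 (GLUT3, a high-affinity transporter) was lowest in GMP and highest in pre-cDC, with no overlap between any groups. It fell from CMP to GMP (-0.999, SE 0.13, adjusted p = 0.00014) and rose from CDP to pre-cDC (1.04, SE 0.13, adjusted p = 3.39e-05). Between pre-cDC and GMP the difference was 1.52 (SE 0.13, adjusted p = 4.84e-07). It was also the single gene higher in CDP than in GMP (0.48, SE 0.13, adjusted p = 0.0139). Slc2a1 read 91.1 and 112 on the CMP arrays, 92.8 and 89.8 on the GMP arrays, 96.7 and 99.4 on the CDP arrays and 127 and 97.9 on the pre-cDC arrays. Slc2a1 (GLUT1, the widely expressed transporter) had differences between the 4 groups from -0.11 to 0.22, none called.

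The 3 hexokinases, which phosphorylate glucose on entry, followed 3 courses. Hk3 read 765 and 895 on the CMP arrays, 1638 and 1672 on the GMP arrays, 610.0 and 665 on the CDP arrays and 90.3 and 82.6 on the pre-cDC arrays. Hk3, the isozyme of myeloid cells, was highest on both GMP arrays and lay below all other arrays in pre-cDC. It rose from CMP to GMP (0.97, SE 0.105, adjusted p = 2.81e-05) and fell from CDP to pre-cDC (-2.50, SE 0.105, adjusted p = 2.12e-09). In pre-cDC it was 14.2-fold lower than in GMP (-3.83, SE 0.105, adjusted p = 1.29e-11). Hk2 read 326 and 428 on the CMP arrays, 603 and 602 on the GMP arrays, 444 and 349 on the CDP arrays and 793 and 840.5 on the pre-cDC arrays. Hk2, the inducible isozyme bound to mitochondria, was thus high in both GMP and pre-cDC, and rose in GMP against CMP (0.64, SE 0.134, adjusted p = 0.00455) and in pre-cDC against CDP (0.99, SE 0.134, adjusted p = 6.38e-05) and CMP (1.06, SE 0.134, adjusted p = 2.06e-05). Hk1 read 719 and 472 on the CMP arrays, 634 and 821 on the GMP arrays, 359 and 304 on the CDP arrays and 276 and 278 on the pre-cDC arrays. Hk1, the broadly expressed isozyme, had overlapping arrays in CMP and GMP and was lower in CDP than in CMP (-0.76, SE 0.169, adjusted p = 0.00812) and than in GMP (-1.06, SE 0.169, adjusted p = 0.000417).

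In upper glycolysis the 3 phosphofructokinases, which commit sugar to the pathway, diverged. Pfkp read 126 and 127 on the CMP arrays, 283 and 322 on the GMP arrays, 200.3 and 179.6 on the CDP arrays and 659.7 and 633 on the pre-cDC arrays. Pfkp rose in GMP (1.08, SE 0.107, adjusted p = 1.41e-05) and again, more than 2-fold above every other group, in pre-cDC (1.61, SE 0.107, adjusted p = 1.22e-07 against CDP; 2.10, SE 0.107, adjusted p = 4.49e-09 against CMP). This reading is of 1 probe set: the other 2 probe sets of Pfkp gave 0.13 and 0.15 in GMP against CMP, and 0.87 and -0.027 in pre-cDC against CDP. Pfkm read 124 and 111 on the CMP arrays, 57.7 and 79.3 on the GMP arrays, 61 and 66.3 on the CDP arrays and 32.8 and 31.4 on the pre-cDC arrays. Pfkm was highest in CMP and fell in GMP (-0.58, SE 0.118, adjusted p = 0.00377) and CDP (-0.64, SE 0.118, adjusted p = 0.00235), with its lowest values in pre-cDC. Pfkl fell in pre-cDC against CDP (-0.67, SE 0.115, adjusted p = 0.000452), while 1 of its other 2 probe sets gave 0.38.

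Aldolase splits fructose 1,6-bisphosphate and triose phosphate isomerase (Tpi1) interconverts the products. Aldoa read 1506 and 1546 on the CMP arrays, 2352 and 2431 on the GMP arrays, 1168 and 1207 on the CDP arrays and 840.0 and 739.8 on the pre-cDC arrays. Aldoa, the main aldolase of most tissues, stepped down in the order GMP, CMP, CDP, pre-cDC. It rose in GMP against CMP (0.64, SE 0.0852, adjusted p = 0.000171) and fell in pre-cDC against CDP (-0.57, SE 0.0852, adjusted p = 0.000151). Tpi1 read 1770.2 and 1743 on the CMP arrays, 2331 and 2503 on the GMP arrays, 1548 and 1463 on the CDP arrays and 484 and 360.1 on the pre-cDC arrays. Tpi1 was lowest on both pre-cDC arrays by a wide margin (-1.77, SE 0.113, adjusted p = 8.8e-08, against CDP). Aldoc read 10 and 15 on the CMP arrays, 8 and 6.81 on the GMP arrays, 10.3 and 15.7 on the CDP arrays and 38.7 and 28.8 on the pre-cDC arrays. Aldoc stood below the array median in CMP, GMP and CDP, and its pre-cDC arrays lay above all others (0.74, SE 0.0956, adjusted p = 2.51e-05, against GMP).

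Among the genes that control fructose bisphosphates, Pfkfb4 was highest in pre-cDC, and Pfkfb3 and Fbp1 were highest in GMP. Pfkfb3 and Pfkfb4 set fructose 2,6-bisphosphate, the activator of phosphofructokinase. Pfkfb4 read 41.8 and 46.4 on the CMP arrays, 56.8 and 66.3 on the GMP arrays, 59.9 and 48.5 on the CDP arrays and 242 and 260.5 on the pre-cDC arrays. Pfkfb4 had no call among CMP, GMP and CDP and was at least 3.03-fold higher in pre-cDC than in any of them (1.72, SE 0.111, adjusted p = 9.63e-08, against CDP; 1.60, SE 0.111, adjusted p = 6.58e-08, against GMP). Pfkfb3 ranged from 95.5 in CDP to 251 in GMP and rose in GMP against CMP (0.84, SE 0.138, adjusted p = 0.000902), but its other probe set gave -0.014. In pre-cDC against CDP, where Pfkfb3 was called higher (0.59), that other probe set gave -0.12. The gluconeogenic phosphatase Fbp1 was lower in pre-cDC than in GMP (-0.91, SE 0.118, adjusted p = 2.41e-05).

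Of 5 genes of lower glycolysis, from phosphoglycerate kinase to pyruvate kinase, 2 rose in GMP against CMP. Pgk1 read 1928 and 2064 on the CMP arrays, 2396 and 2340.0 on the GMP arrays, 1828 and 1784 on the CDP arrays and 1252 and 1018 on the pre-cDC arrays. Pgk1, which yields ATP, did not pass the test between GMP and CMP (0.24, SE 0.0945, adjusted p = 0.107) and fell in pre-cDC against CDP (-0.66, SE 0.0945, adjusted p = 0.000104). The mutase Pgam1 rose in GMP (0.75, SE 0.0736, adjusted p = 1.26e-05), as did Pkm (0.78, SE 0.0968, adjusted p = 9.68e-05), the pyruvate kinase of most dividing cells. Eno3, the muscle-type enolase, ranged from 27.6 to 56.4 on the 8 arrays and rose in pre-cDC (0.37, SE 0.0967, adjusted p = 0.0089, against CDP). Eno2 stayed at or below 6.02 and gave no call.

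Lactate genes included the largest difference of any of the 32 genes between 2 progenitor groups. Slc16a1 read 959.5 and 847 on the CMP arrays, 1018 and 1154 on the GMP arrays, 360.5 and 346 on the CDP arrays and 47.1 and 39.5 on the pre-cDC arrays. Slc16a1 (MCT1, which moves lactate and pyruvate in either direction) had no call between CMP and GMP and fell in CDP (-1.28, SE 0.111, adjusted p = 7.77e-06, against CMP) and again in pre-cDC (-2.36, SE 0.111, adjusted p = 5.87e-09, against CDP). Between GMP and pre-cDC it differed by 14.9-fold in intensity + 32 (-3.89, SE 0.111, adjusted p = 1.79e-11). Slc16a3 read 8.26 and 8.83 on the CMP arrays, 23.6 and 18.8 on the GMP arrays, 16.1 and 19.1 on the CDP arrays and 52.8 and 53.8 on the pre-cDC arrays. Slc16a3 (MCT4, an exporter of lactate) was at low intensity and, unlike Slc16a1, rose in pre-cDC (0.78, SE 0.0838, adjusted p = 8.73e-06, against CDP). Ldhb read 84.5 and 109 on the CMP arrays, 236 and 212 on the GMP arrays, 54.9 and 49.4 on the CDP arrays and 42.8 and 43.4 on the pre-cDC arrays. Ldhb, the subunit that favours pyruvate, was highest on both GMP arrays. It rose in GMP against CMP (0.997, SE 0.116, adjusted p = 5.44e-05) and was lower in CDP than in GMP (-1.60, SE 0.116, adjusted p = 4.19e-07); all 4 of its probe sets had the same sign in both. Ldha read 3389 and 3395 on the CMP arrays, 4366 and 4669.8 on the GMP arrays, 3109 and 3326 on the CDP arrays and 2634 and 2459 on the pre-cDC arrays. Ldha, the subunit that favours lactate, moved less (0.41, SE 0.0688, adjusted p = 0.00102, in GMP against CMP).

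Of the pyruvate dehydrogenase kinases, which switch off pyruvate dehydrogenase, Pdk1 fell along the dendritic line. Pdk1 read 909 and 985 on the CMP arrays, 797 and 689 on the GMP arrays, 577 and 494 on the CDP arrays and 145 and 165 on the pre-cDC arrays. It was lower in CDP than in CMP (-0.79, SE 0.115, adjusted p = 0.000466) and in pre-cDC than in CDP (-1.60, SE 0.115, adjusted p = 2.51e-07), with no overlap. Pdk3 was lower in pre-cDC than in GMP (-1.06, SE 0.13, adjusted p = 1.56e-05), and Pdk2 lay between 8.24 and 17.4 on all 8 arrays with no call.

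The pentose phosphate pathway showed the largest rise of any member in GMP. Pgd read 969 and 983 on the CMP arrays, 2318 and 2617 on the GMP arrays, 1124 and 1075 on the CDP arrays and 628 and 519 on the pre-cDC arrays. Pgd (6-phosphogluconate dehydrogenase, the second NADPH-making step) was 2.47-fold higher in GMP than in CMP (1.31, SE 0.102, adjusted p = 1.66e-06), lower again in CDP (-1.14, SE 0.102, adjusted p = 2.96e-06, against GMP) and lowest in pre-cDC (-0.91, SE 0.102, adjusted p = 1.3e-05, against CDP). Pgls read 1301 and 1162 on the CMP arrays, 1337 and 1327 on the GMP arrays, 1614 and 1701 on the CDP arrays and 1593 and 1213 on the pre-cDC arrays. Pgls, which acts between the NADPH-making steps, was called only in CDP against CMP (0.42, SE 0.113, adjusted p = 0.0245). Tkt read 4413 and 4187 on the CMP arrays, 6310.0 and 6883 on the GMP arrays, 4322 and 4507 on the CDP arrays and 4611 and 4558 on the pre-cDC arrays. Tkt (transketolase) was higher in GMP than in each other group (0.61, SE 0.0623, adjusted p = 1.72e-05, against CMP); 1 of its other 2 probe sets gave -0.011. Taldo1 (transaldolase) was highest in pre-cDC (0.73, SE 0.102, adjusted p = 9.3e-05, against CDP), and the isomerase Rpia rose in GMP (0.58, SE 0.0892, adjusted p = 0.000526).

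**Figure D3:**
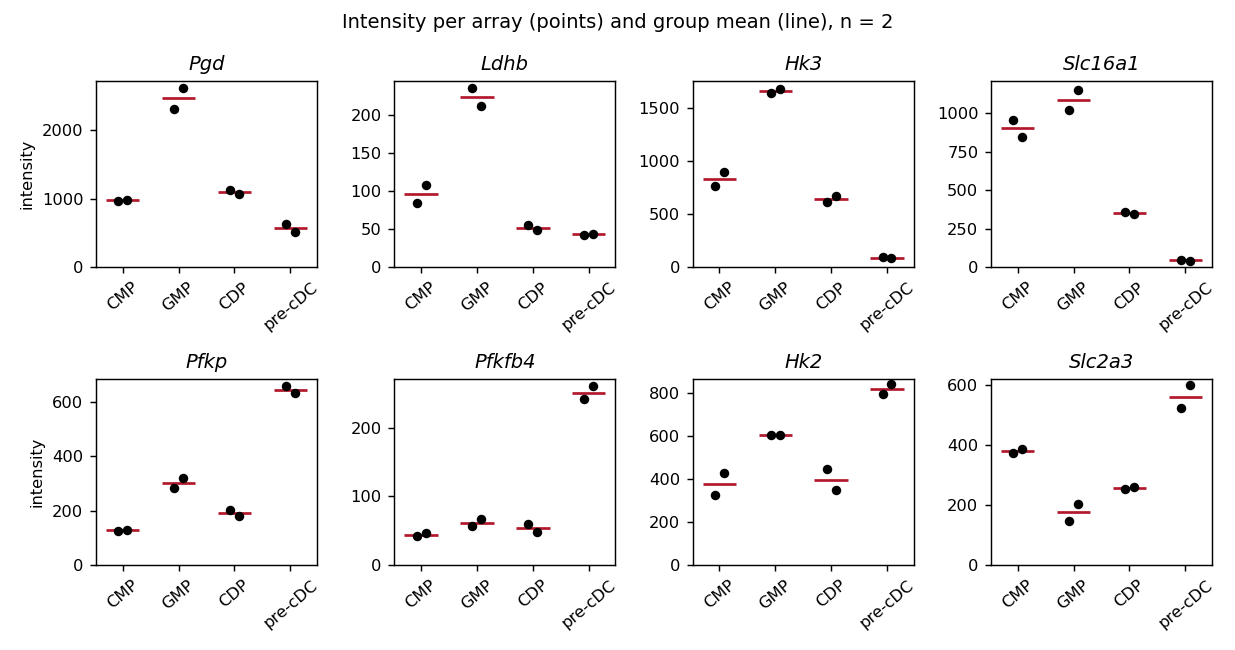
Intensity of 8 genes on each progenitor array (points; vertical axis from 0 on a linear scale) with the group mean as a line, 2 arrays a group. Pgd, Ldhb and Hk3 peak in GMP, Slc16a1 is high in CMP and GMP and at most 47.1 in pre-cDC, and Pfkp, Pfkfb4, Hk2 and Slc2a3 are highest in pre-cDC.

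Markers of other cell types moved with some of these comparisons. The summed intensity of 8 erythroid markers was 4495 to 6303 in CMP and 2762 to 5095 in GMP, but 162 to 227 in CDP and 71.6 to 88.1 in pre-cDC; Car1 and Car2 made up most of it, the haemoglobin gene Hba-a1 read at most 5.42 on these arrays, and 7 of 8 markers were lower in CDP than in CMP. None of the 8 was called between GMP and CMP. The sum of 6 neutrophil markers was 175 to 205 in CMP, 2805 to 3361 in GMP, 261 to 361 in CDP and 135 to 188 in pre-cDC, and in GMP against CMP 3 were higher and 1 lower; the secondary granule gene Ltf read at most 12.9 on the 8 arrays. Of 7 mast cell, basophil and eosinophil markers 4 were higher and 1 lower in that comparison, with sums of 313 to 323 in CMP and 475 to 641 in GMP. The sum of 6 T and NK cell markers was 382 to 466 in CMP, 1824 to 1893 in GMP, 167 to 180 in CDP and 52.2 to 58.3 in pre-cDC. In GMP against CMP 1 of these 6 was higher and 0 lower, and only 1 lay above the array median on both arrays of each group. In pre-cDC against CDP 4 of 4 monocyte markers were higher, with sums of 1760 to 1931 in CDP and 5375 to 5699 in pre-cDC, and 3 of 6 macrophage markers, with sums of 225 to 243 and 1149 to 1339. The part of such cells in the values of the glycolysis genes was not tested.

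Neighbouring pathways were read from lists written from textbook knowledge. Each count stands against the share of all genes called in the same comparison, and a count near that share says nothing particular about a list. For GMP against CMP the share was 7% higher and 9.76% lower. In GMP against CMP, genes of gluconeogenesis and glycogen were 4 of 12 higher and 0 lower, with Pygl (liver glycogen phosphorylase, 1.40, adjusted p = 3.16e-06), Gys1 (glycogen synthase, 1.02, adjusted p = 3.14e-05) and G6pc3 (0.93, adjusted p = 2.73e-05). Other glycolysis and pentose phosphate isozymes were 5 of 19 higher and 0 lower, led by Tigar (0.92, adjusted p = 1.19e-05), a phosphatase that lowers fructose 2,6-bisphosphate. Genes for pyruvate entry into mitochondria were 1 of 10 higher and 0 lower, and the serine and nucleotide branches 0 of 11 higher and 1 lower. Hypoxia response genes outside glycolysis were 3 of 14 higher and 4 lower, with Ero1a at 1.43 and Ndrg1 at -0.93. Regulators of glycolytic genes were 2 of 14 higher and 5 lower, with Txnip, which restrains glucose uptake, at -1.34, adjusted p = 5.78e-07.

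In CDP against CMP the serine and nucleotide branches were 1 of 11 higher and 4 lower, glycogen and gluconeogenesis 1 of 12 higher and 3 lower, and pyruvate entry 1 of 10 higher and 3 lower. The regulators were 2 of 14 higher and 2 lower, with Mycl at 2.14, adjusted p = 1.16e-07 and its relative Myc at -0.99, adjusted p = 0.000393. The other isozymes were 1 of 19 higher and 1 lower and the hypoxia list 1 of 14 higher and 2 lower. Over all genes 7.68% were higher and 6.75% lower. In CDP against GMP, glycogen and gluconeogenesis genes were 1 of 12 higher and 7 lower, with Pygl at -2.70, adjusted p = 4e-09, the serine and nucleotide branches 0 of 11 higher and 5 lower, the other isozymes 1 of 19 higher and 5 lower, pyruvate entry 1 of 10 higher and 2 lower, hypoxia genes 3 of 14 higher and 4 lower and regulators 4 of 14 higher and 4 lower. Here 15.9% of all genes were higher and 12.1% lower.

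In pre-cDC against CDP the largest falls among these lists were in the serine and nucleotide branches, 1 of 11 higher and 7 lower with a median of -0.78, against -0.0081 over all genes. Of all genes 14.4% were higher and 18.8% lower in this comparison. Phgdh, which draws 3-phosphoglycerate into serine synthesis, fell (-3.33, adjusted p = 1.22e-09), as did the serine hydroxymethyltransferases Shmt1 (-2.28, adjusted p = 3.65e-08) and Shmt2 (-2.03, adjusted p = 1.1e-08). Pyruvate entry was 0 of 10 higher and 4 lower, with the dehydrogenase subunits Dld (-0.82) and Pdha1 (-0.75) and the carrier Mpc1 (-0.69). Glycogen and gluconeogenesis genes were 1 of 12 higher and 6 lower, the other isozymes 1 of 19 higher and 5 lower and the hypoxia list 2 of 14 higher and 5 lower, where Ddit4 reached 2.38, adjusted p = 4e-08. The regulators were 3 of 14 higher and 2 lower: Myc fell (-1.85, adjusted p = 4.05e-07), and Txnip (1.28, adjusted p = 2.63e-07) and Mycl (0.63, adjusted p = 0.000516) rose. Against CMP, pre-cDC had 1 of 11 higher and 9 lower in the serine and nucleotide branches, with a median of -1.27, and against GMP 0 of 11 higher and 8 lower. Of all genes 19.1% were higher and 23% lower against CMP, and 21% and 23.1% against GMP.

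The promoters of members that rose together in GMP were searched for 2 motifs, since MYC-family factors bind the E-box CACGTG and the hypoxia-inducible factors bind sites with the core ACGTG. The 250 bases before each RefSeq transcription start (build GRCm38.p6) were read for 31 of the 32 genes, in 44 windows, on both strands; the E-box contains the core. The core was found in 14 of 31 genes (45.2%), against 18.5% of 27025 genes, and in 38.6% of windows, against 16.6% of 32851. Among the 16 genes that rose from CMP to GMP it was found in 8 (50%). The E-box was found in 5 of 31 (16.1%), against 6.86% of all genes: Pfkfb3, Slc16a1, Ldha, Pdk2 and Pfkm. Among the 16 genes that rose it was found in 2 (12.5%), Pfkfb3 and Ldha. The member windows hold more CpG, with a median of 14 against 6, and of the 8231 windows with CpG counts between the members' quartiles (7.5 to 19) 23.1% hold the core and 8.49% the E-box. A match describes letters only.

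Stretches of 30 bases are shown for the 8 genes that rose in GMP and hold the core, and for Slc16a1, which had the largest difference between GMP and pre-cDC; capitals mark the core on either strand or, where the stretch has one, the E-box, and letters run 5′ to 3′ on the gene's strand.
Hk2: aatgagcacatcCACGTcactgtccggggc
Hk3: actacattttgaCACGTtgcctagttcaac
Pfkfb3: acccttctctcCACGTGaaagggggctggg
Aldoa: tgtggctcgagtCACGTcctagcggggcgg
Pgam1: cgctccttgcttACGTGcgctccgtgactg
Pkm: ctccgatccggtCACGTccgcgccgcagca
Ldha: cgtgggttcccgCACGTccgctgggctccc
Slc16a3: gtgACGTGcgcgggggACGTGccgcgcgac
Slc16a1: cggcgccgggtCACGTGgcgggaagggggg
They lie at chr6:82774489-82774518, minus strand (Hk2), chr13:55021524-55021553, minus strand (Hk3), chr2:11502125-11502154, minus strand (Pfkfb3), chr7:126799363-126799392, minus strand (Aldoa), chr19:41911745-41911774, plus strand (Pgam1), chr9:59657140-59657169, plus strand (Pkm), chr7:46845758-46845787, plus strand (Ldha), chr11:120949037-120949066, plus strand (Slc16a3) and chr3:104638453-104638482, plus strand (Slc16a1), all within 250 bases before a start site. Matches were counted on each strand, so 1 E-box counts as 2 matches to the core. The Ldha window holds 5 matches, the most of any member window, and these include 2 E-boxes. Hk2 and Slc16a3 hold 2 matches each without an E-box. Slc16a1 and this window of Pfkfb3 hold 2 matches each, both from 1 E-box. Pgd, Pfkp and Ldhb, the genes with the 3 largest rises in GMP, hold none in these windows.

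The bone marrow cultures set cells grown with GM-CSF beside cells grown with M-CSF, with 1 array each and therefore no test; the 3 comparisons share arrays. To count, a gene needed a difference of 2-fold on the log2(intensity + 32) scale and a higher value above the array median. Few of the 32 genes did so, and most of these were higher with GM-CSF. In GM-CSF adherent against M-CSF adherent cells 3 genes were higher (3.37% of all genes were) and 1 lower (2.12%). In GM-CSF CD11c+ against M-CSF adherent cells 6 were higher (5.32%) and 2 lower (4.29%), with medians of 0.078 and 0.20 over the 32 genes in these comparisons. Between the 2 GM-CSF fractions, CD11c+ against adherent, 2 were higher (2.45%) and 1 lower (1.28%).

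Aldoc, Ldhb and Pdk3 were higher in both GM-CSF fractions. Aldoc read 481 in M-CSF adherent cells, 1943 in GM-CSF adherent cells and 2179.6 in GM-CSF CD11c+ cells. Ldhb read 132 in M-CSF adherent cells, 545 in GM-CSF adherent cells and 723 in GM-CSF CD11c+ cells. Pdk3, the kinase of that family with high basal activity, read 259 in M-CSF adherent cells, 758 in GM-CSF adherent cells and 1191 in GM-CSF CD11c+ cells. Against M-CSF adherent cells the differences of the GM-CSF adherent cells were 1.95, 1.82 and 1.44 on the log2 scale, and the 4 probe sets of Ldhb ranged from 1.47 to 1.87. Slc16a3 read 198 in M-CSF adherent cells, 423 in GM-CSF adherent cells and 489 in GM-CSF CD11c+ cells, and was past 2-fold only in the CD11c+ cells (1.18; 0.99 in the adherent cells).

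Pfkfb3 and Eno3 were high in the CD11c+ fraction. Pfkfb3 read 313 in M-CSF adherent cells, 445 in GM-CSF adherent cells and 1709 in GM-CSF CD11c+ cells. It was higher by 1.87 on the log2 scale than in GM-CSF adherent cells and by 2.33 than in M-CSF adherent cells. Eno3 read 68.1 in M-CSF adherent cells, 85.9 in GM-CSF adherent cells and 356 in GM-CSF CD11c+ cells. Slc2a3 was low there, with 382 in M-CSF adherent cells, 354 in GM-CSF adherent cells and 95.1 in GM-CSF CD11c+ cells. Its difference from M-CSF adherent cells was -1.70, or -0.93 as a mean over its 4 probe sets. Hk3 read 4213 in M-CSF adherent cells, 2549 in GM-CSF adherent cells and 1637 in GM-CSF CD11c+ cells, and its difference between CD11c+ and M-CSF adherent cells was -1.35. Eno2 read 166 in M-CSF adherent cells, 46.2 in GM-CSF adherent cells and 98.5 in GM-CSF CD11c+ cells, with -1.34 between the adherent fractions. Slc2a1 read 1338 in M-CSF adherent cells, 2332 in GM-CSF adherent cells and 1610.2 in GM-CSF CD11c+ cells, within 2-fold in all 3 comparisons. In CD11c+ against M-CSF adherent cells Pfkl (0.94) and Pdk1 (-0.92) came near 2-fold, as did Slc16a1 between the GM-CSF fractions (-0.97). In GM-CSF against M-CSF adherent cells Hk2 differed by 0.76, Taldo1 by 0.65 and Rpia by 0.60. Aldoa (0.20 at most), Pgk1 (-0.11) and Tkt (0.061) differed less.

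The sum of 6 neutrophil markers was 10003 in M-CSF adherent cells, 26787 in GM-CSF adherent cells and 7456 in CD11c+ cells, and that of 6 macrophage markers 33681, 25915 and 23152. Their part in these differences was not tested. In the comparison of CD11c+ with M-CSF adherent cells, the cytokine and the choice of CD11c+ non-adherent cells cannot be told apart. Among neighbouring pathways, Phgdh was lower with GM-CSF by -2.15 in adherent and -2.85 in CD11c+ cells, in a list with 3 of 11 lower and 0 higher in the first case. There 2.12% of all genes were lower and 3.37% higher. Egln3, an oxygen sensor induced by hypoxia, was higher by 3.12 and 3.79, and the transporter Slc2a6 by 1.79 and 2.66. In CD11c+ against M-CSF adherent cells the other isozymes were 1 of 19 higher and 3 lower, glycogen genes 2 of 12 higher and 0 lower, pyruvate entry 0 of 10 higher and 1 lower, hypoxia genes 3 of 14 higher and 0 lower and regulators 4 of 14 higher and 1 lower. Over all genes 5.32% were higher and 4.29% lower.

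**Figure D4:**
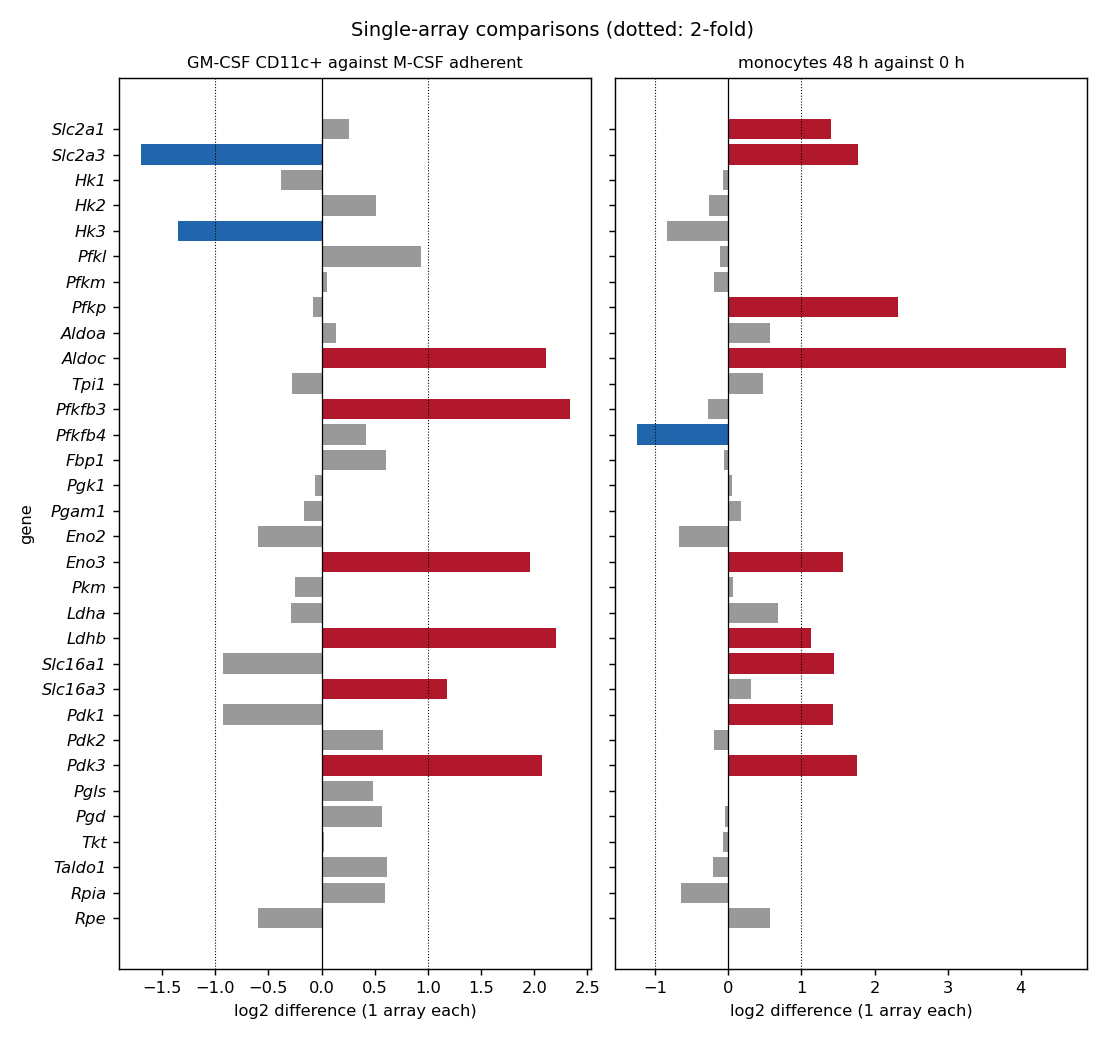
Log2 difference of each gene, 1 array on each side, for GM-CSF CD11c+ against M-CSF adherent cells (left) and for monocytes at 48 h against 0 h of GM-CSF (right); dotted lines mark 2-fold and coloured bars the genes counted. On the left 6 genes are higher and 2 lower, and on the right 9 are higher and 1 lower, with Aldoc at 4.62.

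In monocytes given GM-CSF most of the 32 genes stayed within 2-fold, and more were higher than lower. At 24 h against 0 h, 5 of the 32 genes were higher (6.22% of all genes were) and 3 lower (7.29%). At 48 h against 0 h, 9 were higher (7.4%) and 1 lower (6.19%). Between 24 and 48 h, 3 were higher (2.75%) and 1 lower (0.89%). The medians over the 32 genes were 0.10, 0.059 and 0.0051. There was 1 array at each time, so these are differences between arrays without a replicate check, and the 3 comparisons share them.

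Aldoc differed most. It read 175 at 0 h, 1484 at 24 h and 5064 at 48 h, a difference of 4.62 on the log2 scale over 48 h, and its other probe set gave 3.78. Pfkp read 2762 at 0 h, 11106 at 24 h and 13992 at 48 h, and its 3 probe sets gave 2.33, 2.36 and 3.13 at 48 h. Both genes act in upper glycolysis, where Aldoa (0.57) and Tpi1 (0.47) stayed within 2-fold.

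The glucose transporters were both past 2-fold at 48 h, read from 1 probe set each; the lactate transporter Slc16a3 was not (0.31). Slc2a1 read 1709 at 0 h, 4922 at 24 h and 4557 at 48 h, so its difference was in place by 24 h. Slc2a3 read 382 at 0 h, 348 at 24 h and 1382 at 48 h, so it differed only in the second day (1.89); as a mean over its 4 probe sets, it was 0.94 at 48 h against 0 h. Slc16a1 read 414 at 0 h, 1587 at 24 h and 1184 at 48 h, and averaged with its second probe set it was 0.67 at 48 h.

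Pdk3 read 802 at 0 h, 3354 at 24 h and 2791 at 48 h and Pdk1 1333 at 0 h, 1922 at 24 h and 3667 at 48 h, so 2 of 3 pyruvate dehydrogenase kinases were past 2-fold at 48 h. Eno3 read 475 at 0 h, 400.0 at 24 h and 1477 at 48 h. Eno2 read 28.1 at 0 h, 88.1 at 24 h and 5.51 at 48 h, a difference of -1.68 between 24 and 48 h. Ldhb read 1309.7 at 0 h, 1848 at 24 h and 2900.3 at 48 h; of its other 3 probe sets, those at 48 h against 0 h gave 0.55, 1.17 and -1.84, so its direction is not the same in all.

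Lower members were Hk3, Pfkfb4 and Pfkfb3. Hk3 read 5918 at 0 h, 1960.5 at 24 h and 3292 at 48 h, lowest at 24 h (-1.58). Pfkfb4 read 4490.3 at 0 h, 1953 at 24 h and 1863 at 48 h and stayed low (-1.25 at 48 h). Pfkfb3 read 572 at 0 h, 241 at 24 h and 464 at 48 h, and averaged over its 2 probe sets its difference at 24 h was -0.61. The pentose phosphate genes did not pass 2-fold at any time: Pgd read 15683 at 0 h, 16084 at 24 h and 15141 at 48 h and Tkt 18362 at 0 h, 18001 at 24 h and 17405 at 48 h, and Rpia had the widest difference of that group (-0.65).

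**Figure D5:**
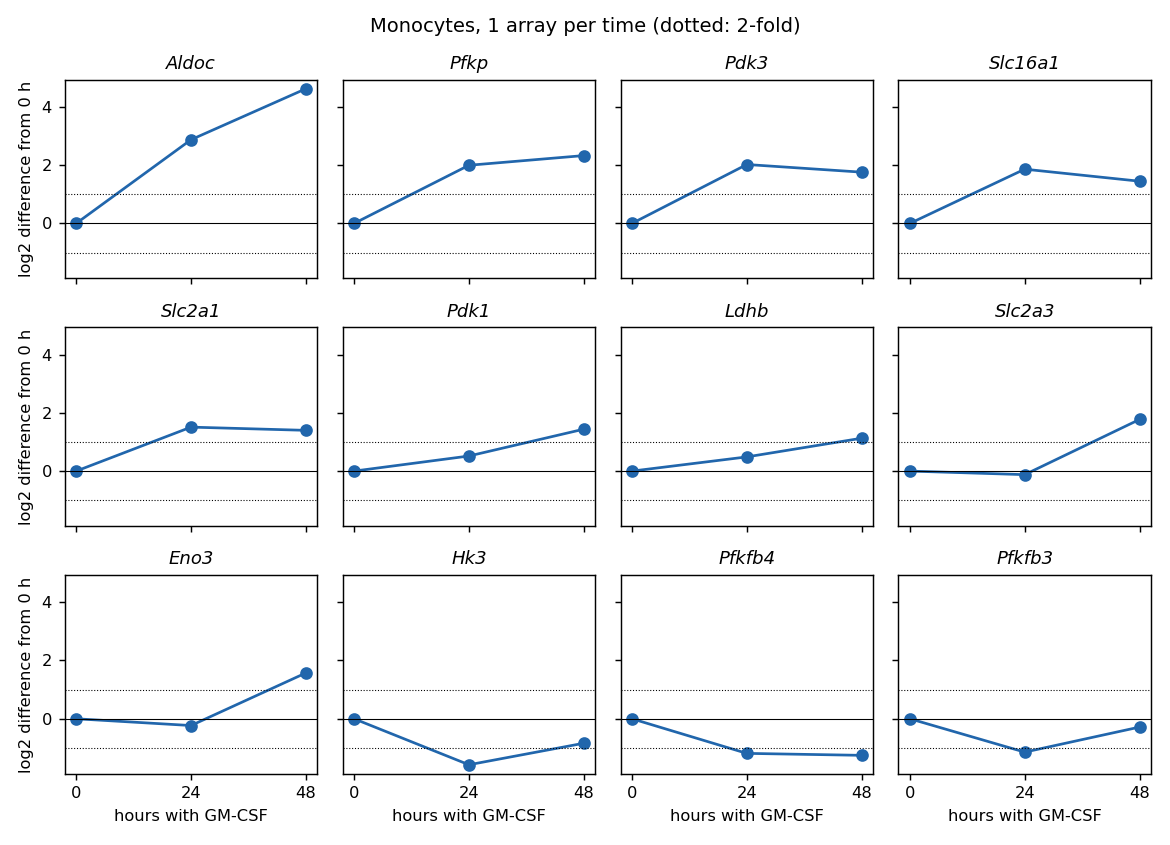
Log2 difference from 0 h of 12 genes in monocytes after 24 and 48 h with GM-CSF, 1 array at each time, with 2-fold marked by dotted lines. Aldoc, Pfkp, Pdk3, Slc16a1 and Slc2a1 are past 2-fold by 24 h, Slc2a3, Eno3, Pdk1 and Ldhb only at 48 h, and Hk3 and Pfkfb3 are lowest at 24 h.

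Other cell markers moved in the same time course. The sum of 6 neutrophil markers was 18330 at 0 h, 7847 at 24 h and 6614 at 48 h. The 5 GMP markers summed to 30485, 12648 and 11651. Of these Fcgr3 read 7439, 11953 and 11062 and made up most of the later sums. The granule genes were lower at 48 h than at 0 h. Prtn3 read 10005 at 0 h and 156 at 48 h, Mpo 4935 and 277, Ctsg 6315 and 98.8, and Elane 1791 and 56.9. The 4 classical dendritic cell markers summed to 1007, 25497 and 28904. The erythroid markers summed to 2056, 2538 and 5950.1, most of the last from Car2 (4038), and the 4 megakaryocyte and platelet markers to 186, 13611 and 10988, most of it from Pf4. The 4 monocyte markers summed to 19984, 13460 and 13851 and the 6 macrophage markers to 14313, 24165 and 25379. The part of a changing mix of cells in the glycolysis values was not tested. Among neighbouring genes Mycl (2.61) and Myc (1.81) were higher at 48 h, Egln3 was higher (2.59) and Ddit4 lower (-2.17). At 48 h against 0 h the lists stood at 4 of 19 higher and 4 lower (other isozymes), 2 of 12 higher and 1 lower (glycogen and gluconeogenesis), 1 of 10 higher and 0 lower (pyruvate entry), 0 of 11 higher and 2 lower (serine and nucleotides), 3 of 14 higher and 1 lower (hypoxia) and 3 of 14 higher and 0 lower (regulators). Over all genes 7.4% were higher and 6.19% lower.

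The Spl array has another scale, so its genes were placed by their percentile among all 18193 genes on the array, with 1 probe set per gene. Against both bone marrow pre-cDC arrays, 13 of the 32 genes stood higher, 17 lower and 2 between, without a test. Pfkfb3 stood at the 90.4th percentile against 74.5 and 75.2, Aldoc at 72.8 against 52.2 and 55.4, and Eno2 at 25.6 against 1.31 and 4.01. Pkm stood at 74.6 against 91.2 and 92.2, Hk2 at 77.2 against 91.9 and 92.8, and Fbp1 at 35.9 against 50.7 and 55.9. Pfkp stood at 91.5 against 90.3 and 90.4. On the Spl array Kit read 1105, while on the bone marrow pre-cDC arrays it read 36.3 and 36.8. With 1 array, site of origin and array scale cannot be told apart.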

How the data were processed

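Expression was measured on 15 arrays (3′ IVT labelling, per the labels' protocols). The authors deposited 1 linear intensity per probe set and array; background correction, probe summary and scaling are not given in the sources used here, and array medians differ between the progenitor, culture, monocyte and Spl arrays. The annotation gives 1 gene for 34945 of 45037 probe sets, several for 932 and none for 9160. Probe sets of 1 gene were used, and 18031 of 18193 genes matched a current RefSeq symbol.

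Values were taken as log2(intensity + 32). The 8 bone marrow progenitor arrays were fitted in 1 model with limma (version 3.58.1, R 4.3.3), using eBayes moderation that allows for an intensity trend; residual degrees of freedom were 4, and 12.6 once moderated. Two-sided p-values were adjusted by Benjamini-Hochberg over the 18193 genes, with 0.05 as the threshold. Single arrays were compared without a test, by 2-fold with the higher value above the array median. The number of arrays limits the precision. The fit was tested on simulated data. Figures used matplotlib 3.10.9 and pandas 2.3.3 in Python 3.11.15.

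Values per array are printed for the 4 largest rises and falls among called genes in each comparison, the 4 largest differences each way in single-array comparisons, and in each role the gene with the highest mean. Up to 3 genes of a pathway list are named, those with the largest called differences. The members and lists were chosen with earlier results of these data known. Alternatives were 16 or 64 added before log2, a filter on dim genes, quantile normalization, the mean over probe sets, no intensity trend, no minimum level, the replicate block and each array left out.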

Additional observations from a re-analysis of the deposited data

How the results depend on the processing

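No difference between groups that was called changed sign under any alternative run. Single probe sets were not among these runs. Called differences of genes with several probe sets of above-median mean numbered 71, and in 17 of them a probe set had the opposite sign. These were in Pfkfb3, Pfkl, Pfkp and Tkt. The number of the 32 genes called in CDP against CMP fell from 12 to between 5 and 7 when 1 array was left out, and was 8 to 14 under the other alternatives. The ranges with 1 array left out were 14 to 16 for GMP against CMP (18 with all arrays), 17 to 22 for CDP against GMP (22), 20 to 23 for pre-cDC against CDP (22), 26 in each case against GMP (27) and 24 to 25 against CMP (26); the group left with 1 array is then assumed to vary like the others. The arrays were not paired by replicate number in the main fit. The deviations of same-numbered arrays correlated at -0.022 to 0.18, which cannot settle whether they share a mouse or a run. With the number as a replicate block the count in CDP against GMP was 24, with Pgls (0.31) and Taldo1 (-0.25) gained, and no other call changed. Quantile normalization ended the calls of Slc2a3 in CDP against GMP (0.32) and Hk2 in pre-cDC against GMP (0.30), and adding 64 ended that of Slc16a3 in CDP against CMP. With 16 added, Slc16a3 in GM-CSF adherent cells (1.04), Slc16a1 in CD11c+ against adherent cells (-1.004) and Eno2 at 24 h (1.24) passed 2-fold. Why these values moved was not tested. Signals below the array median limit Aldoc, Eno2, Pdk2 and Slc16a3 among progenitors, Eno2 and Pdk2 in monocytes and Fbp1 in M-CSF adherent cells. Pfkl lay below it only on the Spl array.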
